A study of Mus musculus with 2 samples.

Results

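The genes described here are 8 enzymes of cholesterol synthesis, chosen by symbol: Hmgcs1, Idi1, Fdps, Fdft1, Sqle, Lss, Cyp51 and Sc5d. Probes named for a gene by the platform annotation were taken from the table of deposited signals. This found 8 probes for 7 of the 8 enzymes, out of 25697 probes and 16593 named genes, with 2 probes for Sqle and 1 for each of the others. Fdft1, which encodes squalene synthase, and the LDL receptor, which takes up cholesterol from the blood, had no probe of that name in the annotation used and were not analysed here.

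The study compared tibialis anterior, a muscle of the front of the lower leg, from C57/BL6 mice of 10 days of age. One group had received vehicle and the other DHT, understood here as the androgen dihydrotestosterone, under the skin 24 h before the muscle was taken. RNA of whole muscle was hybridised to Illumina bead arrays, 1 array for each group. There were no replicates, so no difference below has an error between animals or a test, and whether an array carried RNA of 1 mouse or of a pool is not given in the labels. The dose, the sex of the mice and the make-up of the vehicle are likewise not given.

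Animal cells build cholesterol from acetyl-CoA through mevalonate, the isoprenoid diphosphates, squalene and lanosterol. Side branches of the pathway supply farnesyl and geranylgeranyl groups for proteins, ubiquinone for the respiratory chain and dolichol for glycoproteins. Transcription of nearly all of its enzymes is driven by the sterol-regulated factor SREBP-2, often together with NF-Y, which binds CCAAT boxes. When membrane cholesterol is high, the Insig proteins hold SREBP and its escort Scap in the endoplasmic reticulum, and the genes are less active.

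Promoter sequences, from 250 bases before to 50 after a gene start, are shown for the members found in the RefSeq promoter table used here (build GRCm38.p6), since SREBP-2 and NF-Y act close to the start of these genes. Such a sequence was at hand for 5 of the 8, and each runs 5′ to 3′ on the gene's own strand. Capitals mark the matches to 3 motifs, searched on both strands: the NF-Y box CCAAT, which reads reversed and complemented on the other strand, a form of the sterol regulatory element, TCACNCCAC, and the E-box CACGTG. No match overlapped another.
Hmgcs1 (chr13:119690101-119690400, plus strand): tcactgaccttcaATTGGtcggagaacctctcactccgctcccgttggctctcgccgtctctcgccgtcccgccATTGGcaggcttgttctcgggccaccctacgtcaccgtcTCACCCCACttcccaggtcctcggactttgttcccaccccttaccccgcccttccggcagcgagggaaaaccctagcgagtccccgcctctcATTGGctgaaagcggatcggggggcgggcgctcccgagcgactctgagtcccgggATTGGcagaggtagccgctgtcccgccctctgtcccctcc
Idi1 (chr13:8885356-8885655, plus strand): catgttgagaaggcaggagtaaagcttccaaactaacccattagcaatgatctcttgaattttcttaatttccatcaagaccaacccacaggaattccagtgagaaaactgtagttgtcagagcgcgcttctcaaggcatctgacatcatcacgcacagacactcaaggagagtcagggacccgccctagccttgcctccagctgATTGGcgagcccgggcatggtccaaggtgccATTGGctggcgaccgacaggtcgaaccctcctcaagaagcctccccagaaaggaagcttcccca
Lss (chr10:76531355-76531654, plus strand): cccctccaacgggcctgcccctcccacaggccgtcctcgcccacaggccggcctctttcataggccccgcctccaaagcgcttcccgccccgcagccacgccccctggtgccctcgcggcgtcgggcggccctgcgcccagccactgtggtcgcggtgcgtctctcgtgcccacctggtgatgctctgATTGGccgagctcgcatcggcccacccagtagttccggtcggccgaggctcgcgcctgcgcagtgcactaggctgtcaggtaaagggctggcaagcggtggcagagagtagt
Cyp51 (chr5:4104648-4104947, minus strand): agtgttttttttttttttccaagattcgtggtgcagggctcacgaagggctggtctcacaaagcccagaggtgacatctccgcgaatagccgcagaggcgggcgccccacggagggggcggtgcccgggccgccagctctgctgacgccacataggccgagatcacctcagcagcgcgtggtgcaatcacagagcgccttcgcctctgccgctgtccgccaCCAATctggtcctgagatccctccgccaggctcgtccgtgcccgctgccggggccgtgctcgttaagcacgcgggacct
Sc5d (chr9:42264251-42264550, minus strand): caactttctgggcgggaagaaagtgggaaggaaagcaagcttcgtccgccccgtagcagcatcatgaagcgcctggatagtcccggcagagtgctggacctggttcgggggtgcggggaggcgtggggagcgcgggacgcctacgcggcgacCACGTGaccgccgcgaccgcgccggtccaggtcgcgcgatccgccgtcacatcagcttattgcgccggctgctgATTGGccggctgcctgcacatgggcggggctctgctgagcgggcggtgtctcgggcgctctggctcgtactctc

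An NF-Y box stood in all 5 of these promoters, while 37.4% of 32851 mouse promoters of the same length held one. Hmgcs1 had 4, Idi1 had 2, and Lss, Cyp51 and Sc5d had 1 each. Counting from the gene start, with its first base as 0, every one of the 5 had a box that began between -62 and -14. The sterol regulatory element was matched in Hmgcs1 alone, beginning at -137, against 1.24% of all promoters. The E-box was matched in Sc5d alone, at -98, against 7.15% of all promoters. Among 10 promoters of 9 other enzymes of the route, 8 held an NF-Y box, 0 the sterol regulatory element and 1 the E-box. A match describes letters in a window of 300 bases and does not show binding, and these 3 spellings do not cover all sites of SREBP. The GC content of the 5 windows ran from 52.3% in Idi1 to 71.0% in Lss, and the median over all promoters was 52.7%.

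On the DHT array 5 of the 7 measured enzymes were at least 1.5-fold brighter than on the vehicle array after background correction. These were Sqle, Lss, Cyp51, Sc5d and Fdps. Idi1 and Hmgcs1 differed by less, and no member was 1.5-fold lower. Among all 8815 named genes with a detected probe, 13.4% passed the same threshold upwards and 15.8% downwards. Uncorrected, 4 of the 7 reached that threshold, Sc5d no longer among them, beside 6.74% of all genes higher and 8.43% lower. These shares of all genes stand beside the counts of every list below. The correction subtracts the glow of empty probes, so it widens the folds of dim probes most. Both folds are given for the members and for genes past 1.5-fold, and the corrected log2 difference alone for most others. A positive log2 difference means a higher quantile-normalized signal with DHT, and folds are the brighter over the dimmer array.

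A probe counted as detected at a detection p under 0.01. The lowest detected signal was 190 with vehicle and 180 with DHT. Of the 7 measured members, 5 were detected on both arrays, and Lss and Sc5d on the DHT array alone. Those 2 passed the filter only through the array on which they were bright, so they had to be higher there. For comparison, 12% of the 7971 genes detected on both arrays were at least 1.5-fold higher, and so were 3 of the 5 members detected on both. For genes detected on 1 array alone the corrected fold is given as a bound, against the lowest detected signal of the other array or the probe's own, whichever was higher. Such a bound holds on the background-corrected scale alone.

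**Figure D1:**
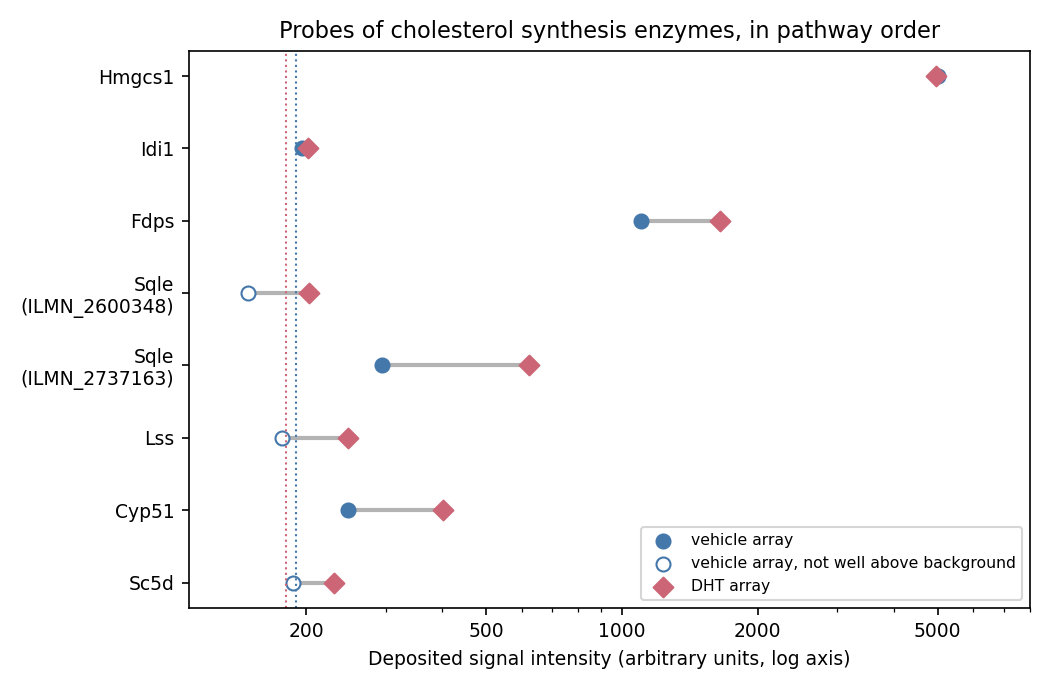
Deposited signal of each probe of the 7 measured enzymes on the vehicle array (circles) and the DHT array (diamonds), on a log axis, from the first enzyme at the top to the last at the bottom; open symbols were not well above background, and dotted lines mark the lowest detected signal of each array (190 vehicle, 180 DHT). The 2 points of Hmgcs1 and of Idi1 nearly coincide, while Fdps, Sqle, Lss, Cyp51 and Sc5d lie farther right on the DHT array; brightness is not comparable between probes.

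Hmgcs1, the cytosolic synthase that joins acetyl-CoA and acetoacetyl-CoA into HMG-CoA, opens the committed part of the route. Its deposited signals were 5016 with vehicle and 4965 with DHT, a ratio of 0.990. These are nearly the same brightness before any scaling. The DHT array was dimmer as a whole, so after normalization Hmgcs1 was 0.18 higher on the log2 scale (1.13-fold corrected and 1.13-fold uncorrected). This probe lay far above background, so the correction hardly touched it.

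Idi1, the isomerase that turns isopentenyl into dimethylallyl diphosphate, was barely above background on either array. Its signals were 196 with vehicle and 202 with DHT, close to the lowest detected ones. The log2 difference was 0.46 corrected (1.38-fold) and 0.16 uncorrected (1.12-fold). Both stayed under 1.5-fold.

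Fdps makes farnesyl diphosphate, the last intermediate before the sterol, ubiquinone and prenylation branches part. Its signal was 1101 with vehicle and 1646 with DHT, a ratio of 1.49 before any scaling. It was 1.92-fold higher corrected (0.94) and 1.80-fold uncorrected (0.85). Both folds were close to each other, since this probe lay well above background.

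Sqle, the squalene epoxidase, adds oxygen to squalene in a rate-limiting step of the sterol arm. Its main probe, ILMN_2737163, read 295 with vehicle and 623 with DHT. This was a ratio of 2.11 in the deposited signals, the highest of the 8 probes. The difference was 1.92 corrected (3.78-fold) and 1.31 uncorrected (2.48-fold). Sqle ranked 76 of the 8815 genes by the corrected difference and 85 by the uncorrected one. The second probe, ILMN_2600348, was not well above background with vehicle, with signals of 149 there and 203 with DHT. It pointed the same way, at least 1.53-fold higher, with an uncorrected fold of 1.45.

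Lss, the cyclase that folds oxidosqualene into lanosterol, read 176 with vehicle, at a detection p of 0.0301, and 248 with DHT. It was at least 2.48-fold higher on the corrected scale, while its uncorrected fold was 1.54. The uncorrected fold includes a vehicle signal that was not well above background. Cyp51, the lanosterol demethylase and the cytochrome P450 of the pathway, was detected on both arrays, at 247 with vehicle and 401 with DHT. It was 2.92-fold higher corrected (1.55) and 1.86-fold uncorrected (0.90), ranks 134 and 221.

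Sc5d, the desaturase that places a double bond in the sterol ring late in the route, read 187 with vehicle and 231 with DHT. Its detection p on the vehicle array was 0.0113, just short of the threshold. It was at least 2.12-fold higher on the corrected scale and 1.35-fold uncorrected. Its call at 1.5-fold rests on the background correction.

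**Figure D2:**
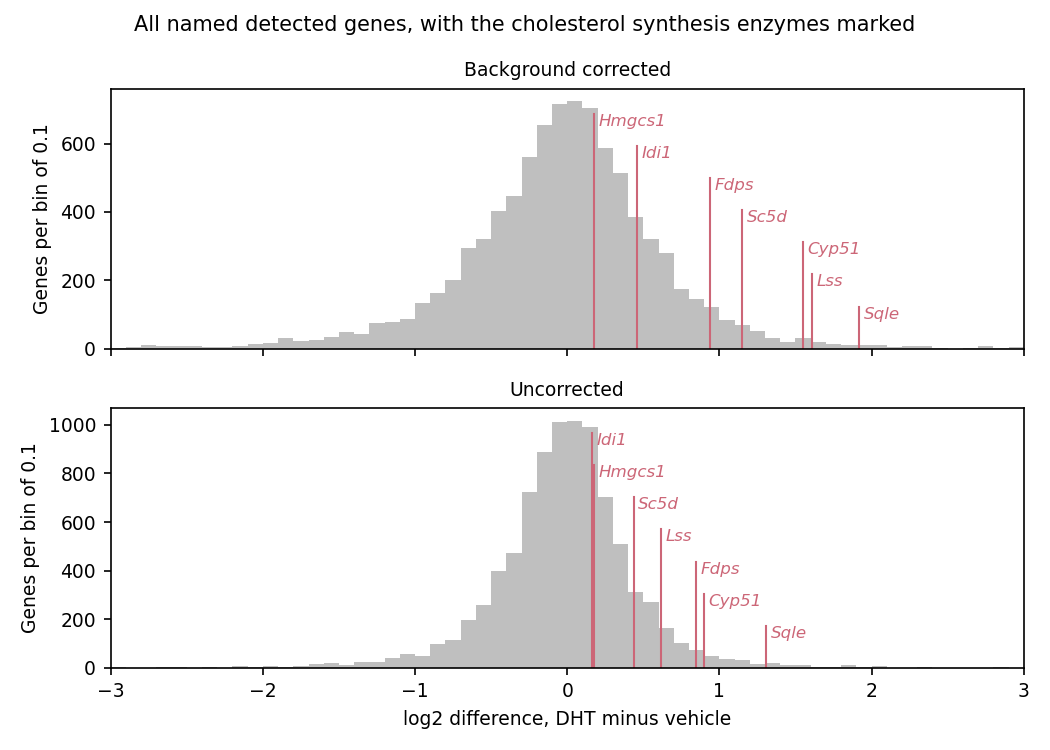
Number of named detected genes in bins of 0.1 of the log2 difference between the DHT and the vehicle array, background corrected above and uncorrected below, drawn from -3 to 3, with lines at the 7 measured enzymes. Hmgcs1 (0.18 corrected) and Idi1 (0.46) stand in the body of the distribution, and Sqle (1.92 corrected, 1.31 uncorrected) stands in its right tail on both scales.

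Over the 7 measured members the median corrected difference was 1.08 with Lss and Sc5d at their bounds, where it is the bound of Sc5d. It was 1.15 with their measured values, where the median is that of Sc5d itself, and 0.62 uncorrected, the value of Lss. Lss and Sc5d passed the filter only through the DHT array. Over the 5 members detected on both arrays the corrected median was 0.94, the value of Fdps. Over all 8815 genes the median was -0.01 corrected and below 0.01 in size uncorrected. The raw signals, with neither correction nor normalization, placed the median of all genes at -0.21, since the DHT array was dimmer. Relative to that shift the raw differences of the members ran from 0.19 for Hmgcs1 to 1.29 for Sqle. As a yardstick inside these arrays, separate detected probes for 1 gene disagreed in their corrected log2 differences by an SD of 0.26 (1967 genes), and the differences of 11395 probes not above background had an SD of 0.20. The uncorrected SDs were 0.19 and 0.11. The differences of Sqle, Cyp51 and Fdps exceeded these SDs on both scales, and that of Hmgcs1 stayed under both corrected SDs and under the larger uncorrected one. Idi1 exceeded both corrected SDs (0.46) and lay between the uncorrected ones (0.16). These SDs describe probes, and the spread between mice is not known.

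The other enzymes of the route were read from a list of 10, of which 7 had a named probe and 6 were detected, all on both arrays. After correction 5 of the 6 were at least 1.5-fold higher and 0 lower, with a median of 0.84. Uncorrected, 2 were higher, with a median of 0.50. In the mevalonate arm, Mvd, the decarboxylase that yields isopentenyl diphosphate, had signals of 267 and 321 on the vehicle and DHT arrays and was 1.76-fold higher (1.37-fold uncorrected). Pmvk, the kinase just before it, had signals of 254 and 238 and was within 1.11-fold (0.14 corrected, 0.07 uncorrected).

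Past lanosterol, Msmo1, the methyl sterol oxidase, read 620 with vehicle and 969 with DHT, 2.13-fold higher (1.87-fold uncorrected). Hsd17b7, a ketosteroid reductase of the same demethylation steps, read 529 and 738, 1.91-fold higher (1.67-fold uncorrected). These 2 were the ones past 1.5-fold on both scales. Ebp, the sterol isomerase, was 1.58-fold higher (1.46-fold uncorrected), from 658 to 804. Nsdhl, the decarboxylase of the same complex as Hsd17b7, was dim, at 198 and 228, and 1.82-fold higher (1.27-fold uncorrected). Its other 3 probes were detected on the DHT array alone and had uncorrected differences from 0.20 to 0.41. Tm7sf2, a sterol reductase, was detected on neither array. Dhcr7, the last reductase on a route to cholesterol, was added after its values were seen. It read 264 and 300, 1.60-fold higher (1.29-fold uncorrected).

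**Figure D3:**
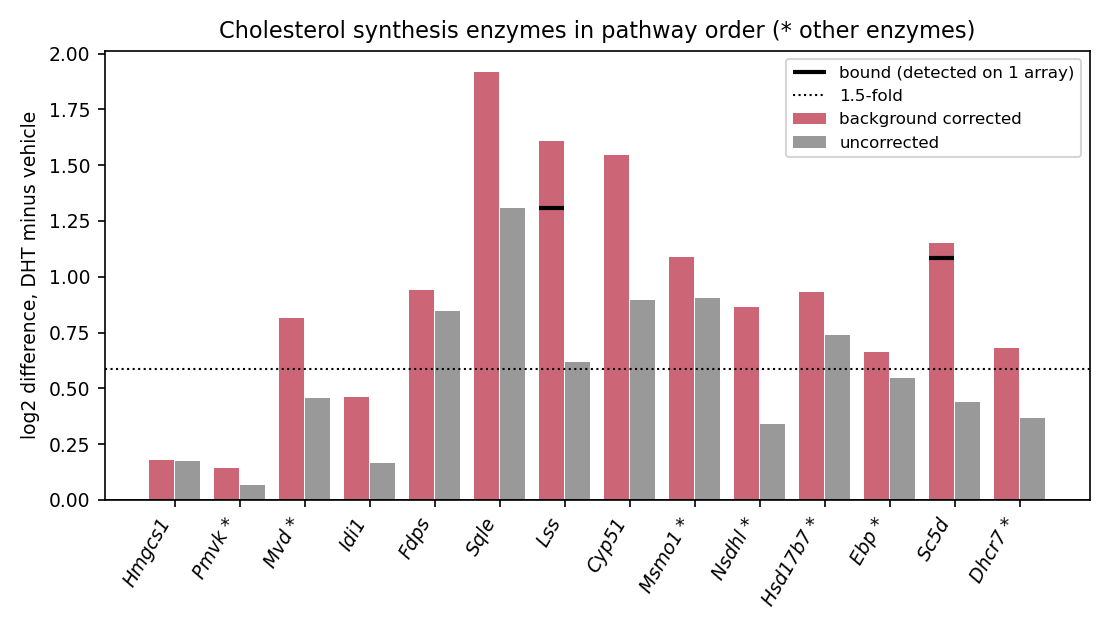
Log2 difference between the DHT and the vehicle array for the 14 detected enzymes of cholesterol synthesis in pathway order, background corrected (red bars) and uncorrected (grey bars); asterisks mark enzymes that are not members, the dotted line 1.5-fold, and black lines the bounds of Lss and Sc5d. Every bar is above 0, the tallest pair is that of Sqle (1.92 and 1.31), and the lowest grey bars are those of Pmvk (0.07), Idi1 (0.16) and Hmgcs1 (0.17).

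Along the route the differences were uneven. Before squalene, the corrected differences of the members were 0.18 (Hmgcs1), 0.46 (Idi1) and 0.94 (Fdps). From squalene on they were 1.92 (Sqle), at least 1.31 (Lss), 1.55 (Cyp51) and at least 1.08 (Sc5d). Uncorrected, Fdps at 0.85 lay above Lss at 0.62 and Sc5d at 0.44, so on that scale the members before and after squalene overlapped. With the other enzymes included, the corrected differences overlapped too. After squalene, Hsd17b7 (0.93), Nsdhl (0.86), Dhcr7 (0.68) and Ebp (0.66) lay below Fdps, while Msmo1 (1.09) lay above it. Before squalene, Mvd was at 0.82 and Pmvk at 0.14. A difference between the earlier and the later enzymes was not tested.

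Genes that regulate the pathway were read beside it, and 6 of 7 were detected. At 1.5-fold 3 were higher and 0 lower, with 2 higher uncorrected, beside 13.4% of all genes higher corrected and 6.74% uncorrected. Srebf1, the SREBP gene best known for fatty acid synthesis, read 166 with vehicle, where it was not well above background, and 255 with DHT. It was at least 2.64-fold higher (1.67-fold uncorrected). Srebf1 was detected with DHT only and so had to be higher there. Its second probe, at 132 with vehicle and 123 with DHT, was detected on neither array. Srebf2, the gene of SREBP-2, read 210 and 230, 1.59-fold higher corrected and 1.21-fold uncorrected. Insig1, itself a target of SREBP, read 409 and 562, 1.95-fold higher (1.62-fold uncorrected). Its other detected probes gave uncorrected differences of 0.34 and 0.44.

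The remaining regulators stayed under 1.5-fold. Insig2 was 1.38-fold higher by its brightest probe (1.36-fold uncorrected), while another of its probes stood at 1.90-fold (1.80-fold uncorrected). Scap, the SREBP escort, differed by -0.03. Mbtps1, the first protease that frees SREBP, was at -0.40 (-0.32 uncorrected), with another probe at -0.68 (-0.50 uncorrected). Mbtps2, the second protease, was detected on neither array.

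Enzymes that draw isoprenoids away from the sterol arm were read from a list of 7, of which 5 had a probe. Of 4 detected, 0 were higher at 1.5-fold and 1 was lower, with a median of 0.02 corrected and 0.04 uncorrected. The lower one was Fntb, the beta subunit of protein farnesyltransferase, at 4811 with vehicle and 2715 with DHT, 1.55-fold lower (1.53-fold uncorrected). Its partner subunit Fnta was at 0.13, the dolichol enzyme Dhdds at -0.09 and the ubiquinone enzyme Coq2 at 0.33. Ggps1, which makes geranylgeranyl diphosphate, was detected on neither array.

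Genes of sterol uptake, transport and turnover were mixed, with 3 of 9 detected higher and 1 lower at 1.5-fold and a median of 0.15. Cyp27a1, a mitochondrial sterol hydroxylase of oxysterol and bile acid synthesis, read 1386 with vehicle and 4683 with DHT, 4.27-fold higher (3.94-fold uncorrected), and its 3 probes ran from 2.03 to 2.13 on the log2 scale. Its uncorrected difference ranked 18 of the 8815 genes. Nr1h3, the oxysterol receptor LXR alpha, read 617 and 926, 2.03-fold higher (1.80-fold uncorrected). Ch25h, another oxysterol-forming hydroxylase, was at least 1.60-fold higher (1.29-fold uncorrected). It was detected with DHT only and so had to be higher there.

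The exporter Abcg1 was detected with vehicle only, which favoured a lower value with DHT. It was at least 1.22-fold lower (1.16-fold uncorrected), although its corrected difference of -0.65 counts it among the lower genes. Stard4, a sterol carrier that is a known SREBP-2 target, read 364 with vehicle and 317 with DHT. Its difference was below 0.01 in size on both scales. The lipoprotein receptors Vldlr (0.15) and Lrp1 (0.20) and the lysosomal sterol carrier Npc2 (-0.40) were under 1.5-fold. Vldlr had 5 probes, of which 1 dim one stood at 0.89 corrected (0.34 uncorrected).

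Fatty acid synthesis shares acetyl-CoA and SREBP control with the cholesterol route. Of 9 detected of 11, 6 were at least 1.5-fold higher and 0 lower, with a median of 1.12 corrected and 1.09 uncorrected, and 5 higher uncorrected. Acaca, the acetyl-CoA carboxylase, read 860 with vehicle and 2500 with DHT, 3.92-fold higher (3.45-fold uncorrected). Thrsp, a lipogenic regulator, was 2.95-fold higher (2.32-fold uncorrected). Malic enzyme Me1 was 2.25-fold higher (2.16-fold uncorrected), the desaturase Scd1 2.20-fold (2.18-fold) and the citrate lyase Acly, which supplies acetyl-CoA to both routes, 2.17-fold (2.13-fold). The elongase Elovl6 was 1.71-fold higher (1.36-fold uncorrected). Acss2 (0.56), Fads1 (0.39) and Scd2 (0.36) were under the threshold.

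**Figure D4:**
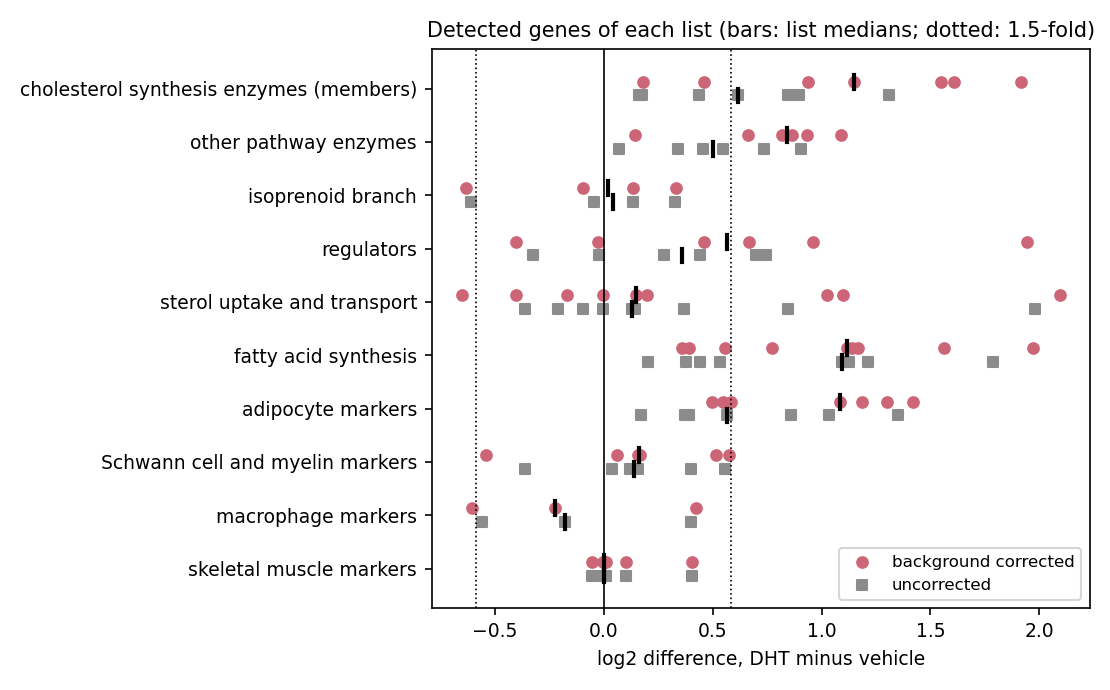
Log2 differences between the DHT and the vehicle array of the detected genes in each list, 1 point per gene, background corrected (red circles) and uncorrected (grey squares), with black bars at the list medians and dotted lines at 1.5-fold in either direction. The members have medians of 1.15 and 0.62, fatty acid synthesis 1.12 and 1.09, adipocyte markers 1.08 and 0.56, and the isoprenoid branch 0.02 and 0.04; using bounds for genes measured with DHT only, the corrected medians of members and adipocyte markers are 1.08 and 0.76.

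These arrays read whole muscle, in which fewer cells of a type and less RNA per cell cannot be told apart. Markers bear on the tissue label: all 7 skeletal muscle markers were detected on both arrays, 6 of them above a signal of 40000 on both, where differences are compressed. Markers of fat cells gave higher values with DHT beside the lipid genes. Of 9 with a probe, 7 were detected, and 5 of them were at least 1.5-fold higher and 0 lower, with 3 higher uncorrected. Plin1 and Lipe were detected with DHT only and so had to be higher there. The median was 0.76 with these 2 at their bounds, 1.08 with their measured values and 0.56 uncorrected. Adiponectin, Adipoq, read 1818 with vehicle and 3930 with DHT, 2.67-fold higher (2.55-fold uncorrected), and leptin, Lep, 492 and 850, 2.46-fold higher (2.05-fold uncorrected). The lipid droplet gene Cidec was 2.28-fold higher (1.81-fold uncorrected). The droplet coat gene Plin1 was at least 1.70-fold higher (1.29-fold uncorrected), and the carbonic anhydrase Car3 was just past the threshold, at 0.59 (0.56 uncorrected). The summed deposited signal of the detected adipocyte markers was 6620 with vehicle and 10177 with DHT, and Fabp4 and Retn were detected on neither. Acly, Acaca, Scd1, Me1 and Thrsp are all abundant in fat. The part of fat cells in the differences of the cholesterol enzymes was not tested.

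Markers of other cell types gave these values. Of the 6 detected Schwann cell and myelin markers, 0 passed 1.5-fold in either direction, with a median of 0.16 and summed signals of 16904 with vehicle and 17180 with DHT. The nearest to it were Mbp at 0.58 and Mag at -0.54. Dimmer probes of Mbp stood at -0.02 (-0.01 uncorrected) and, detected with DHT only, at 0.21 (0.07 uncorrected). A second, dimmer probe of Mal, detected on both arrays, stood 2.47-fold higher (1.52-fold uncorrected), beside 1.43-fold for the probe counted. Hepatocyte markers, albumin (Alb) among them, were detected on neither array for all 6. The skin keratins Krt5 and Krt14 were likewise detected on neither array, and of 6 keratinocyte markers only Krt10 was detected, at 0.14. Of 3 detected macrophage markers 1 was lower, Mrc1 at -0.60 (1.52-fold lower, 1.47-fold uncorrected), and 0 were lower uncorrected. Adgre1 was at -0.22 (-0.18 uncorrected), with another detected probe at -0.30 (-0.22 uncorrected). Lyz2 was 1.34-fold higher, and a second probe of it 1.58-fold (1.52-fold uncorrected). The summed signals were 5279 with vehicle and 4333 with DHT. Their part in the results was not tested.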

How the data were processed

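Gene expression was read on 2 Illumina bead arrays, 1 of vehicle-treated and 1 of DHT-treated muscle. Trizol-extracted RNA, 0.55 µg of it, was made into biotinylated cRNA, per the labels. The deposited signal intensity is each probe's brightness, neither normalized between arrays nor background-subtracted, as its values show. The deposited detection p-value stands beside it, per the file headers. The authors' deposited log2 values lay within 0.000654 of quantile-normalized log2 signals. The submitters' processing notes name GenomeStudio 2011.1, whose role, like any build, is not given in the sources used here.

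Total signal was 2.985e+07 with vehicle and 2.65e+07 with DHT, and 46.5% and 45.7% of probes were detected. The number of arrays limits the precision. The platform annotation, which can be old, gives 23978 probes 1 symbol, 0 probes several and 1719 probes none. Of the Entrez identifiers 23962 matched a RefSeq gene table, and 0 symbols changed.

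Signals were background corrected by the neqc function of limma 3.58.1 in R 4.3.3 (offset 16, background inferred from the detection p-values), which also applies quantile normalization and log2. Its recovery of known folds was checked on simulated data for bright probes only, so the folds of dim probes were not tested this way. Uncorrected values had the log2 and quantile steps alone. A gene's value came from its brightest detected probe. Tables and plots used Python 3.11.15, pandas 2.3.3, numpy 2.4.6 and matplotlib 3.10.9. Genes named are all members, list genes at least 1.5-fold apart and up to 4 others per list. The members and lists were chosen with earlier results of these data known. Altogether 8 alternatives were planned and 1 was added after the data were seen.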

Additional observations from a re-analysis of the deposited data

How the results depend on the processing

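Fdps, Sqle and Cyp51 were higher with DHT under all 9 alternatives. For members with 1 probe, the looser detection threshold, the mean over probes and, where it applied, the limit to genes detected on both arrays repeat the reported value by construction. For Sqle, the looser threshold and the limit to both arrays likewise repeated it. The deposited log2 values lay within 0.000654 of those without background correction, so these alternatives are nearly the same. The direction of Lss and Sc5d was largely set by their detection with DHT only. Sqle and Cyp51 stayed past 1.5-fold under all 9, with log2 differences from 1.08 to 1.92 and from 0.70 to 1.56. Fdps ranged from 0.58 to 0.96, Lss from 0.49 to 1.69 and Sc5d from 0.31 to 1.21, past 1.5-fold under 8 of 9, 7 of 8 and 4 of 8. Hmgcs1 ranged from -0.01 in raw signals to 0.30 and Idi1 from 0.04 to 0.52, never past it.

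The count of members at least 1.5-fold higher, 5 in the report, was 3 with only genes detected on both arrays, which leaves out Lss and Sc5d by construction, and 2 in raw signals. Among all genes, 1180 were higher and 1394 lower in the report, 594 and 743 without background correction, and 281 and 1480 in raw signals, which lack both correction and normalization. The count of other pathway enzymes, 5 in the report, was 2 without background correction, 2 in the deposited log2 values, 2 in raw signals relative to the median of all genes (an alternative chosen after seeing the data) and 1 in raw signals. The members' median was 0.62 without correction, 0.62 in the deposited values, 0.70 in raw signals relative to that median and 0.49 in raw signals. The other enzymes' median was 0.50, 0.50, 0.48 and 0.28 in the same order. With only genes detected on both arrays, the members' median was 0.94 and that of the other enzymes 0.84. The offset of 50, the detection threshold of 0.05, median scaling and the mean over probes kept both counts at 5. No paired analysis was possible because each group held 1 array. Dim signals limit Idi1, Lss, Sc5d and Nsdhl most.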
